A study of Mus musculus with 15 samples.

Results

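Levels of 9 genes that make, break down and regulate glycogen were examined in mouse quadriceps muscle, out of the 12529 genes listed in the deposited expression table. The genes were taken by name: the phosphorylase *Pygm*, the phosphorylase kinase subunits *Phka1*, *Phkb* and *Phkg1*, the synthesis enzymes *Gys1*, *Gyg*, *Gbe1* and *Ugp2*, and the phosphatase targeting subunit *Ppp1r3c*. All 9 were found and all 9 passed the filter on low values. RNA sequencing was performed on 5 libraries from each of 3 groups. Exercised mice (Ex) were wild-type C57BL/6 mice with free access to running wheels for weeks, harvested hours after their last bout. PGC1a Tg(+) mice (mTg) were sedentary C57BL/6 mice that express the coactivator PGC1α, encoded by *Ppargc1a*, constitutively from the muscle creatine kinase promoter. Controls were sedentary wild-type C57BL/6 mice. Per the study's methods all mice were male, and the labels give no ages. The methods give an age for the purchased wild-type mice, but none for the transgenic mice or their littermates. Whether ages matched between the groups is therefore not known. Because the transgene is always on while exercise was voluntary and had ended hours before harvest, the models differ in timing as well as in kind. The study's methods name both wild-type littermates of the transgenic mice and purchased wild-type C57BL/6J mice, and do not say which of them supplied the control libraries.

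Glycogen is the branched glucose store of skeletal muscle, used as fuel during contraction. Glycogenin primes each particle, UDP-glucose supplied by UDP-glucose pyrophosphorylase is added by glycogen synthase, and the branching enzyme introduces the branch points. Breakdown runs through glycogen phosphorylase, which phosphorylase kinase switches on in response to calcium and adrenergic signals, while protein phosphatase 1, brought to the particle by targeting subunits, reverses that switch and activates the synthase. Fast glycolytic fibers are known for high phosphorylase and phosphorylase kinase activity.

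Levels are given as FPKM, here a read count scaled by transcript length and by a depth factor for each library. The factor also depends on which libraries were normalized together. Values of a group are listed in the order of replicates 1 to 5. Over all genes listed in the expression table, a library held 14098168 to 16876751 reads in Ex, 11475817 to 15381111 in mTg and 15686582 to 16917490 in controls. The members were read deeply, with between 886 reads for *Gbe1* and 188058 reads for *Pygm* in a library. *Ppargc1a* measured 4.87 to 7.34 FPKM in Ex, 50.1 to 56.8 FPKM in mTg and 5.06 to 12.5 FPKM in controls. Its RNA was thus raised in every library labelled for the transgene, though these values do not tell the transgene from the endogenous gene. All 7 skeletal muscle markers listed were present. Relative to controls, 2 of them were higher and 4 lower in Ex, and 2 were higher and 5 lower in mTg. Their summed level was 69100 to 76200 FPKM in Ex, 57600 to 69500 FPKM in mTg and 75400 to 83600 FPKM in controls. Markers of endothelium moved with the groups, with 4 of 6 higher in Ex and 6 of 6 higher in mTg, and summed levels of 130 to 162 FPKM in Ex, 146 to 204 FPKM in mTg and 98.0 to 124 FPKM in controls. Both tested satellite cell markers and 4 of 5 Schwann cell markers were lower in mTg. There, 4 of 5 smooth muscle and pericyte markers and 2 of 8 macrophage markers were higher. Of the neutrophil markers, 0 of 4 were in the table. The part of these cells in the results was not tested, and in whole muscle fewer cells of a type and less RNA per cell cannot be told apart. Fold changes are differences of log2(FPKM + 1), given with standard errors (SE), and levels are means with standard deviations (SD, n = 5). Adjusted p-values come from limma with Benjamini-Hochberg adjustment over 11674 tested genes, and 0.05 is the threshold. Because the sources do not tie each library to its own animal, p-values measure only the spread between these libraries.

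In Ex, the breakdown genes and glycogenin were lower than in controls. The synthase and branching enzyme were slightly higher, but each of these calls was lost in 10 of 18 alternative runs. Of the 9 members, 5 fell in Ex relative to controls (*Pygm*, *Phka1*, *Phkb*, *Phkg1*, *Gyg*) against 5.02% of all tested genes that fell. A further 2 rose (*Gys1*, *Gbe1*) against 5.39% of all tested genes that rose, and *Ugp2* and *Ppp1r3c* did not pass the test. The median log2 fold change of the members was -0.30, beside -0.0056 over all tested genes. In 6 of 9 members the Ex and control libraries did not overlap, against 9.6% of tested genes. In mTg relative to controls 6 members fell (the same 5 and *Ugp2*) against 23.1% of tested genes, and *Gys1* and *Gbe1* rose against 22.3%. The median was -0.71, beside -0.021 over all tested genes, and 7 of 9 members did not overlap between mTg and control libraries, against 32.3% of tested genes. Set directly against each other, Ex libraries had 6 members higher than mTg libraries (*Pygm*, *Phka1*, *Phkb*, *Phkg1*, *Gyg*, *Ugp2*) against 20.7% of tested genes, and 1 lower (*Gbe1*) against 20.7%. Here 7 of 9 members did not overlap, against 29.1% of tested genes. Both comparisons with controls share the same control libraries. Calls were more frequent among the 6543 genes that averaged at least 5 FPKM, as all members did. Of these, 433 rose and 644 fell in Ex, and 1650 rose and 1941 fell in mTg. Between Ex and mTg, 1525 were higher in Ex and 1686 lower. The members' calls under that filter were the same.

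**Figure D1:**
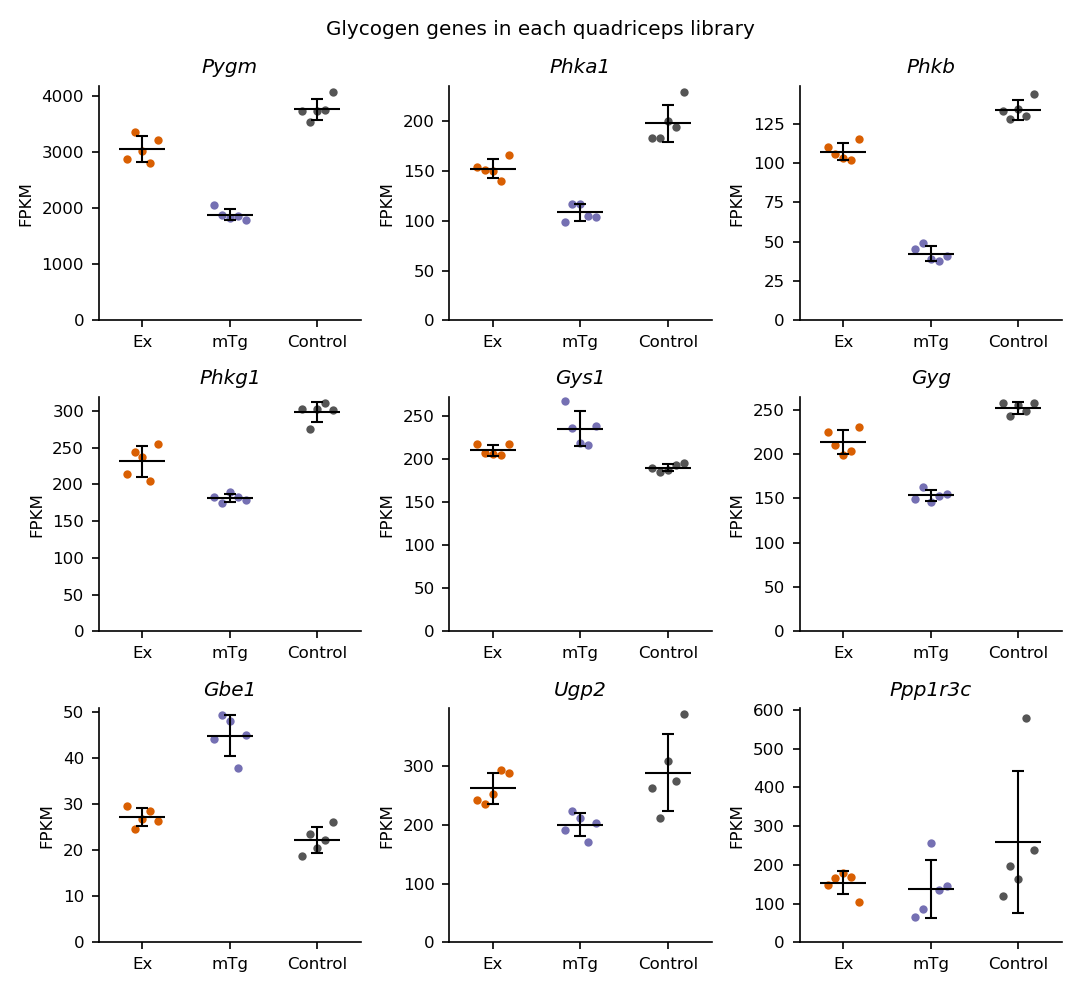
Each panel shows 1 glycogen gene, with FPKM on the y axis (starting at 0), a point for each library of the Ex, mTg and Control groups, and a bar and whiskers for the mean and SD (n = 5). *Phkb* has all 5 mTg libraries between 38.0 and 49.1 FPKM, below every Ex and control library, and *Ppp1r3c* has 1 control library at 579 FPKM, far above the other 4.

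*Pygm* encodes muscle glycogen phosphorylase, which releases glucose 1-phosphate from glycogen, and lies on chromosome 19 from 6384408 to 6398464 (mm10, plus strand). It measured 2875, 3349.7, 3013, 2809 and 3213 FPKM in Ex, 2059.9, 1880.1, 1829, 1867 and 1788 FPKM in mTg, and 3729, 3529.9, 3721, 3739 and 4059.8 FPKM in controls. The 3 groups did not overlap: every Ex library was below every control library and above every mTg library. *Pygm* averaged 3052 ± 227 FPKM in Ex against 3756 ± 191 in controls, 81.3% of the control mean (log2 fold change -0.30 ± 0.06, adjusted p = 0.0130). In mTg it averaged 1885 ± 104 FPKM, 50.2% of the control mean (-0.99 ± 0.07, adjusted p = 9.79e-08). Among all listed genes it ranked 16th by mean FPKM in Ex, 26th in mTg and 14th in controls, and it held 0.700% of the summed FPKM in Ex, 0.412% in mTg and 0.806% in controls.

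The kinase that activates phosphorylase is built of 4 kinds of subunit, and the genes of the 3 dedicated subunits measured here all fell. *Phka1* encodes the muscle α subunit, a regulatory subunit, and lies on chromosome X from 102513975 to 102644301 (mm10, minus strand). It measured 155, 151, 150.3, 140.1 and 166 FPKM in Ex, 99.1, 117, 117, 105 and 104 FPKM in mTg, and 183, 184, 200.1, 195 and 229 FPKM in controls. Each group was separate from both others. The Ex mean was 77.0% of the control mean (-0.37 ± 0.07, adjusted p = 0.00523) and the mTg mean was 54.8% of it (-0.86 ± 0.08, adjusted p = 1.15e-06).

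*Phkb* encodes the β regulatory subunit, which muscle and liver share, and lies on chromosome 8 from 85840853 to 86064251 (mm10, plus strand). It measured 110.1, 106, 103, 102 and 115 FPKM in Ex, 45.2, 49.1, 39.2, 38.0 and 40.7 FPKM in mTg, and 133, 128, 135, 129.7 and 144 FPKM in controls. The mTg libraries were all far below the other groups, and the Ex libraries lay just under the controls. *Phkb* averaged 107 ± 5.35 FPKM in Ex against 134 ± 6.17 in controls (-0.32 ± 0.05, adjusted p = 0.00211). In mTg it averaged 42.4 ± 4.59 FPKM, 31.7% of the control mean (-1.64 ± 0.07, adjusted p = 3.75e-09). Its fold change was the 40th lowest of 11674 genes in mTg and the 362nd lowest in Ex.

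*Phkg1* encodes the muscle catalytic γ subunit and lies on chromosome 5 from 129863431 to 129879134 (mm10, minus strand). It measured 214, 244, 237, 205 and 255 FPKM in Ex, 182, 175, 190.1, 183 and 179 FPKM in mTg, and 303, 275, 302, 311 and 301 FPKM in controls. The 3 groups were again separate, with control replicate 2 the lowest control. The Ex mean was 77.4% of the control mean (-0.37 ± 0.06, adjusted p = 0.00416) and the mTg mean was 60.9% of it (-0.71 ± 0.06, adjusted p = 3.74e-07). Of its exonic bases, 9.68% overlap exons of *Sumf2* on the opposite strand; the kit marks strand, but the sources do not say whether counting used it.

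The fourth kind of subunit is calmodulin, which serves many other proteins too and for which *Calm2* and *Calm3* are described. *Calm3* averaged 144 ± 9.34 FPKM in Ex and 94.1 ± 6.92 in mTg, against 194 ± 14.2 in controls. It fell in Ex (-0.43 ± 0.06, adjusted p = 0.00140) and in mTg (-1.04 ± 0.07, adjusted p = 1.10e-07). *Calm2* fell in Ex (-0.23 ± 0.06, adjusted p = 0.0378) and in mTg (-0.62 ± 0.07, adjusted p = 1.15e-05). The Ex call of *Calm2* was lost without Ex replicate 1, 2, 3 or 4 or control replicate 1, 2, 3 or 5 (adjusted p between 0.0530 and 0.0932), and after rescaling to an equal total (-0.14, adjusted p = 0.238).

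The kinase subunits did not fall by equal amounts in mTg. The ratio of *Phkb* to *Phka1* FPKM, chosen after the values were seen and given without a test, was 0.686 to 0.729 in Ex, 0.335 to 0.456 in mTg and 0.627 to 0.729 in controls. Ex libraries thus overlapped the controls while all mTg libraries lay below. The ratio of *Phkg1* to *Pygm* was 0.0757 ± 0.0031 in Ex, 0.0967 ± 0.0061 in mTg and 0.0795 ± 0.0035 in controls.

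The other isoforms of these enzymes were rare. Relative to controls, *Phka2* and *Phkg2* did not pass the limma test in Ex (adjusted p = 0.935 and 0.130) or in mTg (0.274 and 0.179). The minor phosphorylases *Pygb* and *Pygl* did not pass either. The share differences from controls below thus largely restate the falls of *Phka1*, *Phkg1* and *Pygm* and are not separate results. *Phka2*, the liver α subunit, averaged 2.08 ± 0.151 FPKM in Ex, 1.89 ± 0.152 in mTg and 2.11 ± 0.259 in controls, and *Phkg2*, the liver and testis γ subunit, averaged 7.181 ± 0.43 FPKM in Ex, 7.201 ± 0.961 in mTg and 6.403 ± 0.404 in controls. The share of *Phka1* in the α subunit sum was 98.7% ± 0.063 in Ex and 98.3% ± 0.187 in mTg, against 98.9% ± 0.171 in controls. The difference from controls was -0.283 percentage points in Ex and -0.657 points in mTg, and each had an adjusted p = 0.0119 (exact two-sided permutation test, n = 5 each, adjusted over 9 share tests; raw p = 0.00794, the smallest this design can give). The Ex difference lost the threshold without Ex replicate 2 or without Ex replicate 3 (adjusted p = 0.0595 by the exact test in both). The share of *Phkg1* in the γ subunit sum was 97.0% ± 0.423 in Ex and 96.2% ± 0.530 in mTg, against 97.9% ± 0.174 in controls, with an exact permutation adjusted p = 0.0119 for both. Ex exceeded mTg in the *Phka1* share by 0.375 points (adjusted p = 0.0119, exact permutation test), and in the *Phkg1* share by 0.773 points, which did not pass (adjusted p = 0.0536, exact permutation test; 0.0397 without mTg replicate 3 and 0.0476 without mTg replicate 4). *Pygm* made up over 99% of the 3 phosphorylases in every library: its share was 99.85% ± 0.029 in Ex, 99.75% ± 0.053 in mTg and 99.87% ± 0.041 in controls. The mTg difference from controls was -0.124 points (adjusted p = 0.0204, exact permutation test), and the Ex difference of -0.0167 points did not pass (adjusted p = 0.476, exact permutation test).

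**Figure D2:**
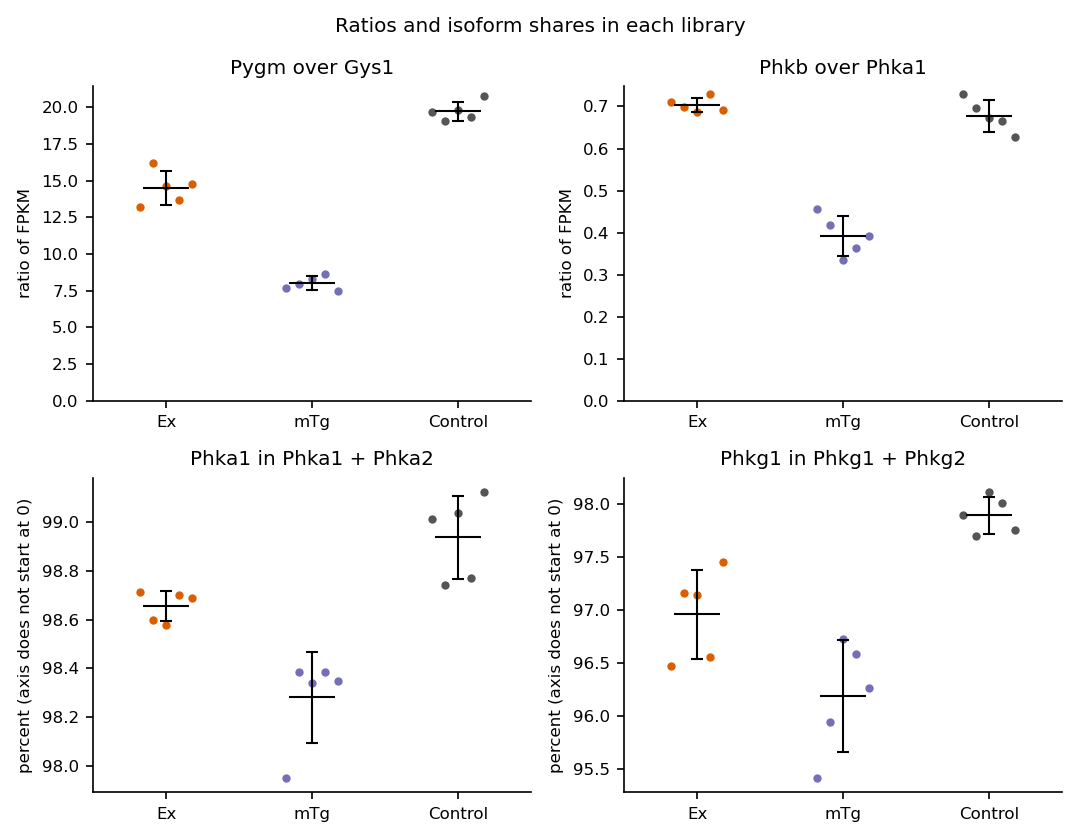
The upper panels show the ratio of FPKM of *Pygm* to *Gys1* and of *Phkb* to *Phka1*, on axes that start at 0, and the lower panels the percent of *Phka1* and *Phkg1* in their isoform sums, on axes that do not. Points are the libraries of the Ex, mTg and Control groups with mean and SD (n = 5): the *Pygm* to *Gys1* ratio separates all 3 groups, and *Phkb* to *Phka1* is low in mTg, at 0.335 to 0.456.

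On the synthesis side, *Gys1* encodes muscle glycogen synthase and lies on chromosome 7 from 45434839 to 45456617 (mm10, plus strand), with 6.47% of its exonic bases overlapping *Ruvbl2* exons on the opposite strand. It measured 218, 207, 206, 205 and 218 FPKM in Ex, 268, 237, 219.6, 216 and 238 FPKM in mTg, and 189.6, 185, 188, 194 and 195 FPKM in controls. Every Ex and every mTg library was above every control, while Ex and mTg overlapped. *Gys1* averaged 211 ± 6.32 FPKM in Ex and 236 ± 20.7 in mTg against 190.4 ± 4.26 in controls. It rose in mTg (0.30 ± 0.07, adjusted p = 0.00210) and by less in Ex (0.15 ± 0.04, adjusted p = 0.0356), and the test did not separate Ex from mTg (-0.16 ± 0.07, adjusted p = 0.0787). The Ex call was lost without Ex replicate 1, 2, 3 or 5 or control replicate 1, 2, 3 or 4 (adjusted p between 0.0572 and 0.0840) and in the fit on all 15 libraries, whereas the mTg call held with each library left out.

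*Gbe1* encodes the branching enzyme and lies on chromosome 16 from 70313949 to 70569720 (mm10, plus strand). It measured 29.6, 24.5, 26.8, 28.4 and 26.4 FPKM in Ex, 44.0, 49.2, 47.8, 37.8 and 45.0 FPKM in mTg, and 18.8, 23.5, 20.5, 22.2 and 26.1 FPKM in controls. All mTg libraries were above all others, and the Ex range overlapped the top of the controls. *Gbe1* averaged 44.8 ± 4.45 FPKM in mTg, 201% of the control mean of 22.2 ± 2.82 (0.98 ± 0.09, adjusted p = 2.10e-06). In Ex it averaged 27.1 ± 1.96 FPKM, 122% of the control mean (0.28 ± 0.08, adjusted p = 0.0457). Leaving out Ex replicate 1, 3, 4 or 5 or control replicate 1, 2, 3 or 4 ended this call (adjusted p between 0.0556 and 0.104), as did the fit on all 15 libraries.

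*Gyg* encodes glycogenin, the self-glucosylating primer, and lies on chromosome 3 from 20122083 to 20155117 (mm10, minus strand). It measured 225, 210.4, 199, 203 and 231 FPKM in Ex, 149.6, 163, 146, 153 and 155 FPKM in mTg, and 258, 243, 255, 248 and 257 FPKM in controls. The 3 groups did not overlap. Unlike *Gys1* and *Gbe1*, *Gyg* fell in Ex (84.7% of the control mean, -0.24 ± 0.05, adjusted p = 0.0110) and in mTg (60.9%, -0.71 ± 0.05, adjusted p = 2.84e-07). The Ex call was lost when FPKM were rescaled to an equal total in every library (adjusted p = 0.0793).

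*Ugp2* encodes UDP-glucose pyrophosphorylase, which makes the glucose donor, and lies on chromosome 11 from 21321126 to 21371267 (mm10, minus strand), with 2.54% of its exonic bases overlapping exons of *Gm12043* on the opposite strand. It measured 241, 236, 253, 293 and 287 FPKM in Ex, 191, 223, 211, 172 and 202 FPKM in mTg, and 262, 212, 308, 275 and 388 FPKM in controls. Control replicate 5 was the highest and control replicate 2 fell within the mTg range. *Ugp2* was lower in mTg than in controls (-0.51 ± 0.13, adjusted p = 0.00700) and higher in Ex than in mTg, with no overlap (0.39 ± 0.09, adjusted p = 0.00260). The Ex difference from controls was -0.12 ± 0.13 (95% confidence interval -0.40 to 0.17, adjusted p = 0.621).

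*Ppp1r3c* encodes a targeting subunit, also called PTG, that brings protein phosphatase 1 to glycogen, and lies on chromosome 19 from 36731731 to 36736604 (mm10, minus strand). It measured 149, 167, 179, 168 and 105 FPKM in Ex, 64.4, 85.2, 256, 135 and 145 FPKM in mTg, and 120.3, 197, 163, 579 and 239 FPKM in controls. Control replicate 4 and mTg replicate 3 were high, and all 3 groups overlapped. No other member spread as widely within a group, with a coefficient of variation of 19.0% in Ex, 54.3% in mTg and 70.8% in controls; the other 8 members had 3% to 10.1% in Ex, 3.09% to 10.8% in mTg and 2.24% to 22.6% in controls. The differences were -0.55 ± 0.33 in Ex (adjusted p = 0.318) and -0.85 ± 0.40 in mTg (adjusted p = 0.103). The mTg difference passed the threshold without mTg replicate 3 (adjusted p = 0.0334) and without control replicate 1 (adjusted p = 0.0485). Without control replicate 4, the highest library, the differences were -0.20 in Ex (adjusted p = 0.576) and -0.50 in mTg (adjusted p = 0.240).

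**Figure D3:**
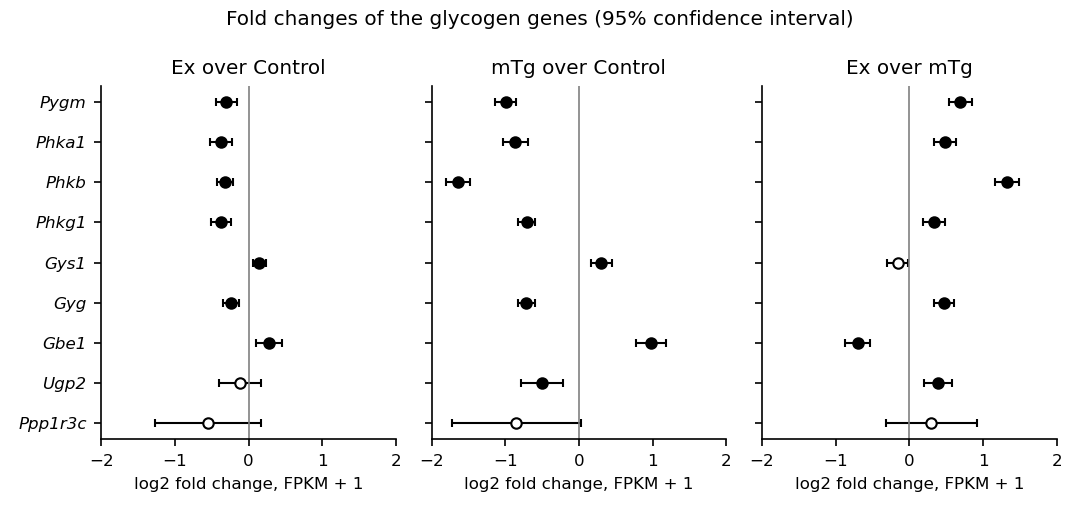
Log2 fold changes on the FPKM + 1 scale (x axis) of the 9 glycogen genes (rows) in the 3 comparisons, with 95% confidence intervals from limma (n = 5 per group); filled points passed an adjusted p of 0.05. *Pygm*, the kinase subunits and *Gyg* lie below 0 in Ex and further below 0 in mTg, *Gys1* and *Gbe1* lie above 0 in both, and *Ppp1r3c* has the widest intervals.

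Of the 9 members, 5 had every Ex library below every control and above every mTg library (*Pygm*, *Phka1*, *Phkb*, *Phkg1*, *Gyg*), an order found in 1.05% of tested genes. The direct fit of Ex against mTg gave log2 fold changes of 0.69 ± 0.07 for *Pygm* (adjusted p = 4.20e-06), 0.49 ± 0.07 for *Phka1* (adjusted p = 7.31e-05), 1.32 ± 0.08 for *Phkb* (adjusted p = 2.16e-08), 0.34 ± 0.07 for *Phkg1* (adjusted p = 0.00145) and 0.47 ± 0.06 for *Gyg* (adjusted p = 4.17e-05). *Gbe1* was lower in Ex than in mTg (-0.70 ± 0.08, adjusted p = 9.27e-06), and *Ppp1r3c* did not pass (0.30 ± 0.29, adjusted p = 0.425). None of the members showed the opposite order, which 1.17% of tested genes did. The ratio of *Pygm* to *Gys1* followed the same order without overlap: 13.2 to 16.2 in Ex (mean 14.5 ± 1.14), 7.50 to 8.63 in mTg (8.02 ± 0.464) and 19.1 to 20.8 in controls (19.7 ± 0.656). This ratio is built from the *Pygm* and *Gys1* values above, which moved in opposite directions, and is not a separate result. The ratio of *Ppp1r3c* to *Gys1* overlapped between the groups, at 0.733 ± 0.155 in Ex, 0.600 ± 0.356 in mTg and 1.36 ± 0.938 in controls.

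Ordered by mean FPKM, *Pygm* was far above all other members in each group. In Ex it was followed by *Ugp2* (262), *Phkg1* (231), *Gyg* (214), *Gys1* (211), *Ppp1r3c* (154), *Phka1* (153), *Phkb* (107) and *Gbe1* (27.1). In mTg *Gys1* (236) moved to second place, above *Ugp2* (199.9), *Phkg1* (182), *Gyg* (153), *Ppp1r3c* (137) and *Phka1* (108), and *Phkb* (42.4) stood last below *Gbe1* (44.8). In controls the order was *Phkg1* (298), *Ugp2* (289), *Ppp1r3c* (259.7), *Gyg* (252.1), *Phka1* (198), *Gys1* (190.4), *Phkb* (134) and *Gbe1* (22.2). Neighbors among *Ugp2*, *Phkg1*, *Gyg* and *Gys1* in Ex, and among *Gys1*, *Ugp2* and *Phkg1* in mTg, overlapped in their ranges, as did *Gyg* with *Ppp1r3c*, *Ppp1r3c* with *Phka1*, and *Gbe1* with *Phkb* in mTg. In controls *Phkg1*, *Ugp2*, *Ppp1r3c* and *Gyg* overlapped each with the next, as did *Phka1* and *Gys1*, and in Ex *Ppp1r3c* overlapped *Phka1*. Control replicate 5 held the highest control value of 6 of the 9 members, and without it the calls were still 2 higher and 5 lower in Ex and 2 higher and 6 lower in mTg.

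Of the 4 adult myosin heavy chain genes, only *Myh4* fell in Ex (-0.43 ± 0.07, limma adjusted p = 0.0031) and in mTg (-0.69 ± 0.12, adjusted p = 0.00046). Its FPKM did not pass between Ex and mTg (0.26 ± 0.12, adjusted p = 0.102), and the libraries of these groups overlapped. *Myh4*, the myosin of the fastest, glycolytic type IIb fibers, held 74.3% ± 3.32 of the 4 adult myosin heavy chain transcripts in Ex, 68.0% ± 2.89 in mTg and 90.3% ± 0.821 in controls. The type IIx gene *Myh1* held 13.9% ± 1.95 in Ex, 28.4% ± 2.32 in mTg and 6.63% ± 1.09 in controls, and the type IIa gene *Myh2* held 11% ± 1.80 in Ex, 3.34% ± 0.847 in mTg and 2.70% ± 0.253 in controls. The slow type I gene *Myh7* held 0.803% ± 0.166 in Ex, 0.299% ± 0.156 in mTg and 0.326% ± 0.127 in controls. The part of these myosins in the glycogen gene results was not tested.

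A list of 31 further glycogen pathway genes was found in the table, of which 30 were tested. In Ex, 0 of 30 were higher and 9 were lower than in controls, against 5.39% and 5.02% of all tested genes, with a median log2 fold change of -0.081 beside -0.0056 over all tested genes. By limma voom on recovered reads the count was 1 higher and 9 lower. In mTg, 2 were higher and 13 lower, against 22.3% and 23.1% of all tested genes, with a median of -0.14 beside -0.021. Between Ex and mTg, 9 were higher in Ex and 2 lower, against 20.7% of all tested genes in each direction. The Ex count of 9 became 5 without Ex replicate 1, Ex replicate 4 or control replicate 3, and 4 without control replicate 1.

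Among enzymes next to the members, *Pgm2*, a phosphoglucomutase that interconverts glucose 1-phosphate and glucose 6-phosphate, averaged 549 ± 44.5 FPKM in Ex and 455 ± 38.2 in mTg, against 705 ± 95.9 in controls. It fell in Ex (-0.35 ± 0.09, adjusted p = 0.0249) and in mTg (-0.63 ± 0.09, adjusted p = 0.000101). *Pgm1* and *Pgm2* each appear as a synonym of the other in the RefSeq gene table, so the locus behind this symbol is uncertain. Its Ex call was lost without Ex replicate 1, 3 or 4 or control replicate 1 (adjusted p between 0.0506 and 0.0571). *Gaa*, the lysosomal acid α-glucosidase, fell in Ex to 86.8 ± 4.42 FPKM (-0.35 ± 0.05, adjusted p = 0.00232) and in mTg to 72.0 ± 6.19 (-0.62 ± 0.07, adjusted p = 1.35e-05), against 111 ± 6.97 in controls.

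*Ppp1r3a*, the striated muscle targeting subunit of protein phosphatase 1, was lower in Ex (-0.50 ± 0.12, adjusted p = 0.0249) and did not pass in mTg (-0.25 ± 0.19, adjusted p = 0.288), where replicates 1 and 2 were higher than the other 3. Its Ex call was lost without Ex replicate 1, 2 or 4 or control replicate 1, 2 or 3 (adjusted p between 0.0509 and 0.0626), after rescaling to an equal total (0.0541) and in the fit on all 15 libraries (0.107), and in mTg it passed without mTg replicate 2 (adjusted p = 0.0335). The catalytic subunit gene *Ppp1ca* fell in mTg (-0.21 ± 0.05, adjusted p = 0.00418). *Gsk3a*, a kinase that inactivates glycogen synthase, fell in Ex (-0.23 ± 0.04, adjusted p = 0.00748; 0.0711 after rescaling to an equal total) and in mTg (-0.30 ± 0.05, adjusted p = 0.000620), and its paralog *Gsk3b* fell in mTg (-0.41 ± 0.13, adjusted p = 0.0226; 0.0571 without mTg replicate 4). *Prkaca*, a catalytic subunit of protein kinase A, which activates phosphorylase kinase, was higher in Ex than in mTg (0.23 ± 0.06, adjusted p = 0.00606).

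The 2 genes of Lafora disease, whose products laforin and malin act together on glycogen, moved apart in mTg. *Nhlrc1*, encoding malin, rose (5.23 ± 0.480 FPKM in mTg against 3.12 ± 0.291 in controls, 0.60 ± 0.08, adjusted p = 2.67e-05), whereas *Epm2a*, encoding laforin, fell (-0.31 ± 0.11, adjusted p = 0.0282). The *Epm2a* call was lost without mTg replicate 4 or control replicate 1, 2 or 3 (adjusted p between 0.0559 and 0.0622) and after rescaling to an equal total (0.0554), and in Ex it passed without Ex replicate 5 (adjusted p = 0.0146; 0.0533 with all libraries). *Stbd1*, a glycogen-binding protein, fell in mTg to 14.9 ± 3.25 FPKM against 24.4 ± 6.26 in controls (-0.67 ± 0.16, adjusted p = 0.00405).

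**Figure D4:**
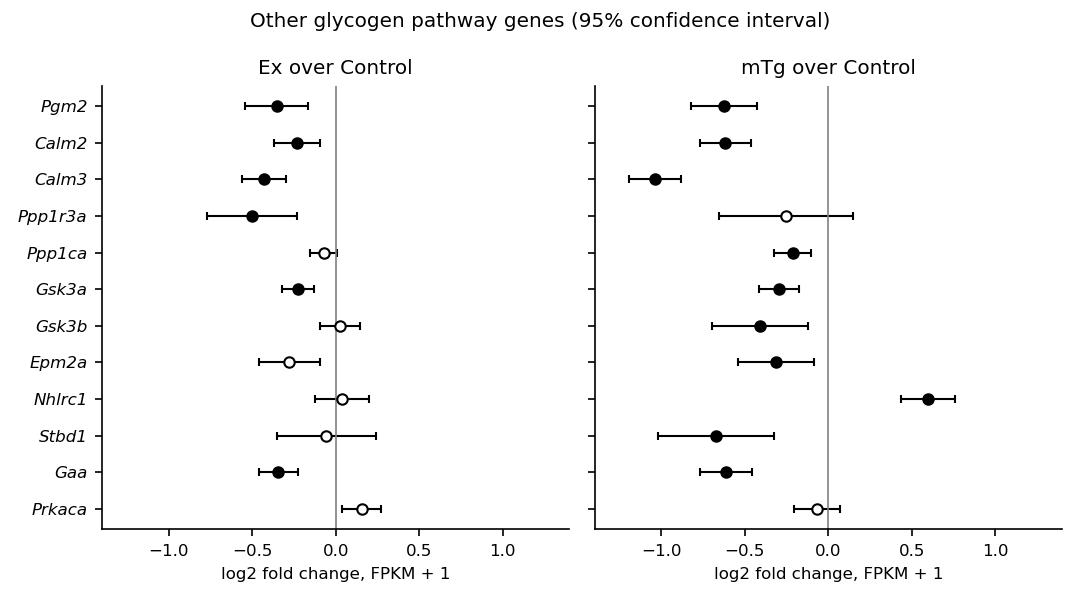
Log2 fold changes on the FPKM + 1 scale (x axis) of 12 other glycogen pathway genes (rows) in Ex and in mTg relative to controls, with 95% confidence intervals from limma (n = 5 per group); filled points passed an adjusted p of 0.05. *Calm3* is the lowest in mTg at -1.04, and *Nhlrc1* is the only one shown with a filled point above 0.

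The promoters of the members were read from RefSeq (GRCm38.p6, the assembly of mm10), which gave all 9. Of these, 4 are printed as the 250 bases before the start site, 5′ to 3′, chosen because *Pygm* fell while *Gys1* and *Gbe1* rose and *Ppp1r3c* varied most, and because the window lies outside the annotated gene. Capitals mark matches on either strand to the E-box form CAGCTG, to the second E-box form CACGTG, or to the GC box GGGCGG.
Pygm, chr19:6384158-6384407, plus strand: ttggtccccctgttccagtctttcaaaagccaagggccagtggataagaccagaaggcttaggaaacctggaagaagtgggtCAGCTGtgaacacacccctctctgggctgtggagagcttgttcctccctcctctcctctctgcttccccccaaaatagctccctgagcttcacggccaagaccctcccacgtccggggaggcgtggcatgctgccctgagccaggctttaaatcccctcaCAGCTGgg
Gys1, chr7:45434589-45434838, plus strand: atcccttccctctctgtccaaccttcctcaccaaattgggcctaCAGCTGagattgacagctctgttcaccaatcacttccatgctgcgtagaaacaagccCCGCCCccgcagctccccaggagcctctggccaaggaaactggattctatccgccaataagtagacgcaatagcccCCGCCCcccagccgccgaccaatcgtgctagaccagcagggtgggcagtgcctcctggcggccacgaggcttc
Gbe1, chr16:70313699-70313948, plus strand: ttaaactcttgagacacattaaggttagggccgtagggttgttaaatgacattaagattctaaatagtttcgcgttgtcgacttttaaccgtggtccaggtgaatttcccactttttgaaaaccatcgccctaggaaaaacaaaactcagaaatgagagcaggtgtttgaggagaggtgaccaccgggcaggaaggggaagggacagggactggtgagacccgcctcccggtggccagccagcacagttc
Ppp1r3c, chr19:36736605-36736854, minus strand: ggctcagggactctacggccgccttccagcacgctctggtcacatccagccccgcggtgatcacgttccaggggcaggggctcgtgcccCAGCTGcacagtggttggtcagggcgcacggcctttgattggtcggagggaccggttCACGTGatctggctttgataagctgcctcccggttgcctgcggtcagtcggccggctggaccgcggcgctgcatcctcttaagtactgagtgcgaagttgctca

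Over the windows of all 9 members, CAGCTG, a form of the E-box bound by myogenic factors, was found in 5 members (*Pygm*, *Phka1*, *Gys1*, *Ugp2*, *Ppp1r3c*) and in 13.0% of the 32851 promoter windows. Members are counted by gene, and the percents count windows. *Ugp2* has 2 windows and held CAGCTG only in window 2. *Pygm* held it at 168 and at 8 bases before the start. GGGCGG, the GC box, was found in 5 members (*Phka1*, *Phkb*, *Gys1*, *Gyg*, *Ugp2*) and in 32.7% of windows. CACGTG, the E-box form bound by USF and ChREBP, was found in *Ppp1r3c*, 104 bases before the start, and in 6.02% of windows. AAGGTCA, a core element of estrogen-related receptor sites, TATAAA and the MEF2 site were in none of the member windows, and in 4.08%, 12.4% and 2.92% of all windows. The motifs do not overlap each other in these windows, both strands were searched, and *Gbe1* and *Phkg1* held none of the 6. *Pygm*, which fell, and *Gys1*, which rose, both held CAGCTG.

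For 4 members, the tested genes outside both lists with the most similar pattern over the 15 libraries were named by the Pearson correlation of log2(FPKM + 1), as a description. The libraries form 3 groups, so r is also given for deviations from the group means (within groups). For *Pygm* they were *Tspan8* (r = 0.989; 0.61 within groups), the calcium- and calmodulin-dependent kinase *Camk2a* (0.985; 0.396 within groups) and the junctophilin *Jph2* (0.985; 0.767 within groups). For *Phkg1* they were *Asb14* (0.987), *Wbp2* (0.981) and the tropomyosin *Tpm1* (0.981), with 0.71 to 0.817 within groups. For *Gys1* they were the sodium pump subunit *Atp1b1* (0.954), *Tmem63b* (0.937) and *Nudt8* (0.935), with 0.726 to 0.812 within groups. For *Ppp1r3c* they were *Glb1l2* (0.900), the transcriptional repressor *Nfil3* (0.896) and *Dpep1* (0.839), and here r within groups was about as high, at 0.891, 0.904 and 0.887 in that order.

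Over all tested genes, 629 were higher and 586 lower in Ex than in controls. With FPKM rescaled to an equal total in every library, these became 1224 and 208, the members' calls became 2 higher and 4 lower, and those of the other pathway genes became 3 higher and 4 lower. The median of all tested genes moved to 0.069 under that scaling. Between Ex and mTg 2414 were higher and 2413 lower, which became 3042 and 1902, with the members' calls at 6 higher and 1 lower as before. The summed FPKM per library was 435848 ± 13098 in Ex against 465949 ± 18858 in controls.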

How the data were processed

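Polyadenylated RNA of quadriceps was made into stranded libraries. Alignment by the authors used STAR and mm10, and their tests used DESeq2 1.1.0; the sources used here give no annotation, counting tool or rule for reads matching several genes. Values are FPKM as deposited by the authors for 12529 genes, 21 of them with symbols turned into dates. The mTg columns were normalized separately from the Ex and control columns, and control values differ between the 2 by 0.993 to 1.01 per library. Deposited comparison tables of the authors hold mean counts, log2 fold changes, standard errors, test statistics and p-values, which were not used. Whole reads were recovered for 100% of genes (tolerance 0.01) and served for depth and for voom only. Precision is limited by 5 libraries per group; replicates differed by more than counting noise in every pair of a group (a chi-square of 4.56 to 27.0 per gene).

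Log2(FPKM + 1) was fitted with limma 3.58.1 (R 4.3.3, mean-variance trend, two-sided) on the 10 libraries of each comparison, for the 11674 genes that averaged 0.5 FPKM or more, with Benjamini-Hochberg adjustment. A log-scale model was used because the values are not counts. It was tested on simulated data. Shares were compared with exact permutation tests. The members and lists were chosen with earlier results of these data known. Every member is named with its value in each library, and other pathway genes where they passed in at least 1 comparison and exceeded 5 FPKM in a group, besides the isoforms in the shares; a few such genes are not reported here. Alternatives were a pseudocount of 0.1, no filter, a filter of 5 FPKM, other scalings, voom, a fit on all 15 libraries, a replicate block, the mTg scale for controls, and each library left out.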

Additional observations from a re-analysis of the deposited data

Results flagged for a closer look

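Among 93 groups of 5 libraries (31 genes and shares in 3 groups), 5 had a single library far from the other 4 by Dixon's test at the 95% level, which chance gives in about 1 of 20 groups. *Ppp1r3c* was 579 FPKM in control replicate 4, where the other controls had 120.3 to 239 FPKM. *Phkg1* was 275 FPKM in control replicate 2, below the 301 to 311 FPKM of the others. *Gsk3a* was 51.3 FPKM in control replicate 2, where the others had 52.9 to 53.5 FPKM. *Stbd1* was 35.3 FPKM in control replicate 5, where the others had 19.6 to 23.6 FPKM. The share of *Phka1* was 97.95% in mTg replicate 1, where the other mTg libraries had 98.34% to 98.39%.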

How the results depend on the processing

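No member changed direction in any comparison under any alternative run. In Ex relative to controls, 141 of 162 member values under alternatives stayed on their side of the threshold and 21 lost it (*Gys1*, *Gbe1* and, after rescaling to an equal total, *Gyg*); in mTg 168 of 171 stayed and 3 passed (*Ppp1r3c*); in Ex relative to mTg 161 of 162 stayed and 1 passed (*Gys1*, fit on all 15 libraries). With 1 library left out, the genes called were 755 to 1442 in Ex, 4697 to 5358 in mTg and 4254 to 4911 between Ex and mTg, the members called 5 to 7, 8 to 9 and 7, and the other pathway genes called 4 to 10, 11 to 16 and 10 to 12. Over the same fits the *Phka1* share differed by -0.332 to -0.236 points in Ex, by -0.706 to -0.574 in mTg and by 0.291 to 0.401 between Ex and mTg, the *Phkg1* share by -1.06 to -0.816, -1.85 to -1.52 and 0.579 to 0.909, and the *Pygm* share by -0.0340 to -0.0074, -0.142 to -0.109 and 0.092 to 0.125. A filter of 5 FPKM left 3211 genes called between Ex and mTg, with fewer genes tested.

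Same-numbered libraries had correlations of deviations of -0.216 to 0.189 and mostly did not correlate best with their own number, so the numbers were not taken as pairs. With a replicate block, 1039, 5076 and 4414 genes and 5, 9 and 7 members were called in Ex, in mTg and between Ex and mTg. The block ended the Ex calls of *Gys1* (adjusted p = 0.0890), *Gbe1* (0.0876), *Calm2* (0.0616) and *Ppp1r3a* (0.0582), and *Ppp1r3c* passed in mTg (0.0353) and *Epm2a* in Ex. For shares, the exact sign-flip permutation test of 5 pairs cannot go below p = 0.0625, so -0.283, -0.937, -0.657, -1.71, -0.124, 0.375 and 0.107 points lost the threshold by design. The mTg scale for controls gave no value for Ex against mTg, which holds no control columns. With 5 libraries per group, differences that were small beside their standard error could have been missed.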
